A study of Mus musculus with 9 samples.

Results

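Matrix metalloproteinases are zinc enzymes that cut collagens, laminins and other proteins outside the cell. Tissue inhibitors of metalloproteinases, the TIMPs, bind their active site and block it. In peripheral nerve and sensory ganglia these enzymes and inhibitors are known for their part in the inflammation and matrix remodelling that follow nerve injury. The genes described are Mmp2, Mmp3, Mmp9, Mmp14, Mmp15, Mmp16, Timp1, Timp2, Timp3 and Timp4. They were chosen by name, with earlier results of these data known, and matched 10 of the 45904 identifiers measured, 1 Ensembl gene each. The tissue was the whole sciatic dorsal root ganglion, which houses the sensory neurons of the sciatic nerve with their satellite glia, Schwann cells, vessels and resident immune cells.

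Ganglia came from C57BL/6 mice in 3 groups of 3 libraries. Young sham mice were 8 to 10 weeks old and aged sham mice 20 to 22 months old. Aged injury mice, also 20 to 22 months old, had an injured sciatic nerve, and young mice with an injured nerve were not analysed here. All ganglia were taken 24 h after surgery, each library pooled ganglia of 2 mice, and the labels name no transgene, drug or sex, and no kind of nerve lesion. Values are FPKM, fragment counts scaled to gene length and library size. Levels of different genes can be compared per length only as far as the authors' gene lengths, which are not stated, hold.

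The libraries held between 11156000 and 16154000 effective fragments, as read from the worth of 1 read in the FPKM. The labelled tissue was borne out by its neuronal markers, with Uchl1 of sensory neurons at 1415 to 1729 FPKM. The pools differed in sex as well as in age. The female transcript Xist was at most 0.02 FPKM across the young libraries, 1.75 FPKM in replicate 1 of aged sham, which also held Y-linked RNA (Ddx3y 10.9 FPKM), and 9.77 FPKM or more in the other aged libraries. Differences of aged from young libraries below are therefore also differences of mostly female from male pools, and age and sex cannot be told apart. Among the aged libraries only aged sham replicate 1 held more than a trace of Y-linked RNA, so the injury comparison was not balanced in sex either. The 17601 genes whose mean reached 0.2 FPKM were tested with limma on log2(FPKM + 0.1), and a gene was called at an adjusted p under 0.05. Of the 10 genes 9 passed that filter, all but Mmp3. In these bulk libraries, fewer cells of a type and less RNA per cell cannot be told apart.

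Inhibitor transcripts were far more abundant than enzyme transcripts. Summed over the family, the 4 TIMPs held 275 to 350 FPKM per library and the 6 metalloproteinases 44.7 to 57.4 FPKM. Timp2 alone supplied 85.9% to 90.4% of the TIMP sum. Among these 6 enzymes Mmp15 supplied 46.3% to 59.2% of the sum. That sum leaves out 17 other metalloproteinase genes, which together held 32.01 to 44.65 FPKM per library. By mean level over the 9 libraries the order was Timp2 (277 FPKM), Mmp15 (27.8 FPKM), Timp3 (23.7 FPKM), Timp1 (11.7 FPKM), Mmp14 (11.3 FPKM), Mmp2 (7.31 FPKM), Mmp9 (2.17 FPKM), Mmp16 (1.81 FPKM), Timp4 (0.458 FPKM) and Mmp3 (0.162 FPKM). The ranges over libraries of neighbours in this order overlapped for Mmp15 and Timp3, for Timp3 and Timp1, for Timp1 and Mmp14, for Mmp9 and Mmp16, and for Timp4 and Mmp3.

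**Figure D1:**
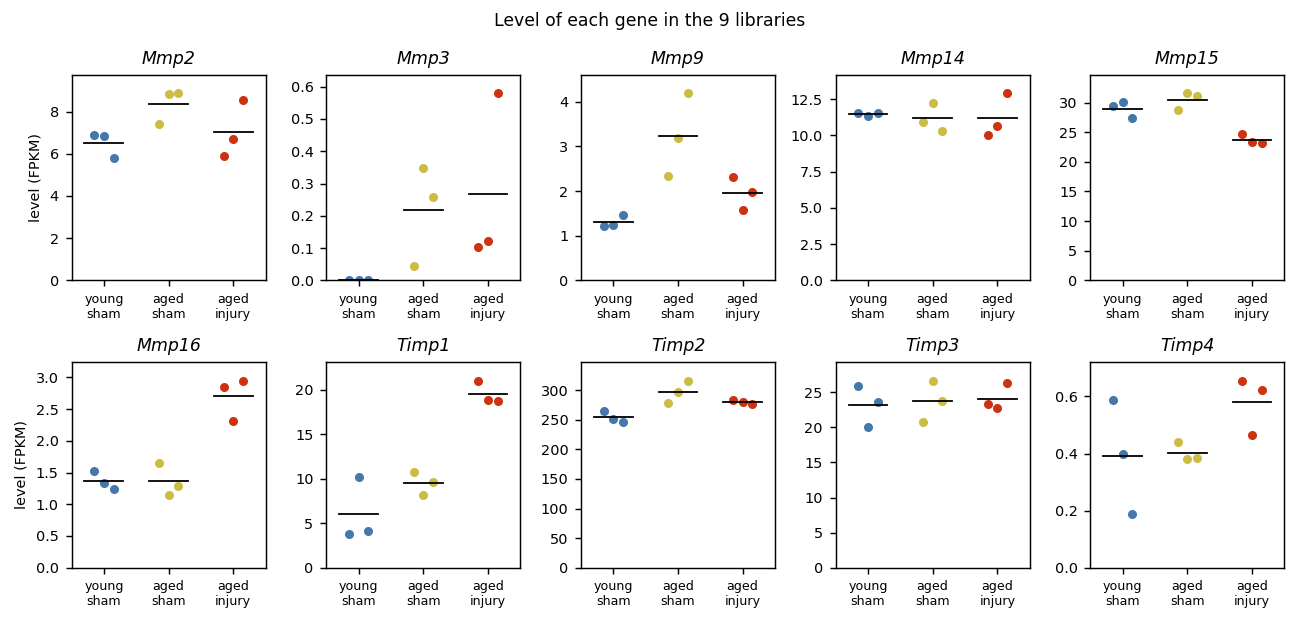
Level of each of the 10 genes in FPKM (linear axes from 0) in the 3 groups; each point is 1 library and each bar the mean of 3. Timp1 and Mmp16 stand highest in the aged injury libraries, Mmp15 lowest there, and Mmp9 highest in aged sham.

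Counted over the family, 1 of 9 tested genes was called with age, Mmp9, which was higher in aged sham, against 4.02% of all tested genes called (2.53% higher and 1.49% lower). After injury 2 of 9 were called, Mmp16 higher and Mmp15 lower, against 4.11% (2.45% higher and 1.65% lower). Between aged injury and young sham 3 of 9 were called, Timp1 and Mmp16 higher and Mmp15 lower, against 13.1% (8.2% higher and 4.89% lower). The 3 comparisons share libraries and are not independent. These counts carry no test against the background, and the genes were chosen with earlier results of these data known. The median log2 change of the 9 was 0.11 with age, -0.00 after injury and 0.14 between aged injury and young sham, where over all tested genes it was 0.04, -0.01 and 0.02.

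Groups whose libraries do not overlap were common in these data. With age this held for 3 of the 9 genes, all higher, close to the 29.2% of all tested genes (17.7% higher and 11.5% lower). After injury it held for 5 of 9, 3 higher and 2 lower, against 25.4% (11.7% higher and 13.7% lower). Between aged injury and young sham it held for 5 of 9, 4 higher and 1 lower, against 35.4% (19.9% higher and 15.5% lower). Over all tested genes 707 were called with age (445 higher and 262 lower), 723 after injury (432 and 291) and 2304 between aged injury and young sham (1444 and 860). With the libraries set to equal medians these splits were 281 and 536, 287 and 294, and 1029 and 1670, and the same number of the 9 genes was called in each comparison.

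Mmp9, the gelatinase that neutrophils carry in their granules and that cuts basement membrane collagen, was the one gene of the family called with age. It lies on chromosome 2 from 164940780 to 164955850 (mm10). Its level was 1.22, 1.25 and 1.47 FPKM in young sham, 2.33, 3.19 and 4.19 FPKM in aged sham, and 2.33, 1.57 and 1.97 FPKM in aged injury. Every aged sham library was above every young sham library. Mmp9 rose from 1.31 ± 0.135 to 3.24 ± 0.933 FPKM with age (SD, n = 3 each). On the log2 scale this is 1.205 (SE 0.213, 95% interval 0.72 to 1.69), with a limma adjusted p of 0.0306. These values rested on 55 to 58 reads per young library and 106 to 191 per aged sham library.

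Between aged sham and aged injury the Mmp9 libraries all but touched, with the lowest aged sham library at 2.327 FPKM and the highest aged injury library at 2.326 FPKM. The log2 change was -0.68 (95% interval -1.16 to -0.20, limma adjusted p = 0.118). With the Y-linked level in the fit it was -0.89 (adjusted p = 0.0498), and no other alternative called it. Without aged sham replicate 1, the pool that held Y-linked RNA, it was also -0.89 (limma adjusted p = 0.0525). Aged injury was above young sham in all libraries, with a log2 change of 0.53 (adjusted p = 0.136, and 0.0478 with array weights). The age call was kept in 4 of the 9 fits that each left out 1 library. It was lost without young sham replicate 1 or 3, aged sham replicate 2 or 3, or aged injury replicate 3. Limma adjusted p was then between 0.0597 and 0.117. The call was also lost when the Y-linked level entered the fit (log2 change 0.73, adjusted p = 0.253). That level, a mean log2 level of Y-linked genes, was 2.56 to 2.72 in young sham and 2.10 in aged sham replicate 1. In the other aged libraries it was -3.32 to -3.28. It nearly followed the split of young from aged libraries, so lost calls against young sham cannot separate age from sex, here or below.

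Neutrophil genes moved with Mmp9 across the libraries. Over the 9 libraries, the 3 genes of 12110 searched whose log2 levels followed Mmp9 most closely were Retnlg, Camp and S100a9 (Pearson r = 0.966, 0.963 and 0.955). All of them are genes of neutrophils and their granules, and the points share library depth and pooled animals. Of 8 neutrophil markers, 6 rose with age and 2 did not pass, with a median log2 change of 1.39, against 0.04 over all tested genes. After injury 3 of the 8 fell and 5 did not pass, with a median of -1.08. Over all tested genes 2.53% were called higher with age and 1.65% lower after injury. The 8 markers summed to between 148 and 238 FPKM in young sham, 340 and 618 FPKM in aged sham, and 186 and 318 FPKM in aged injury, and none was at 0 throughout. The part of neutrophils, or of blood in the ganglia, in the Mmp9 values was not tested.

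**Figure D2:**
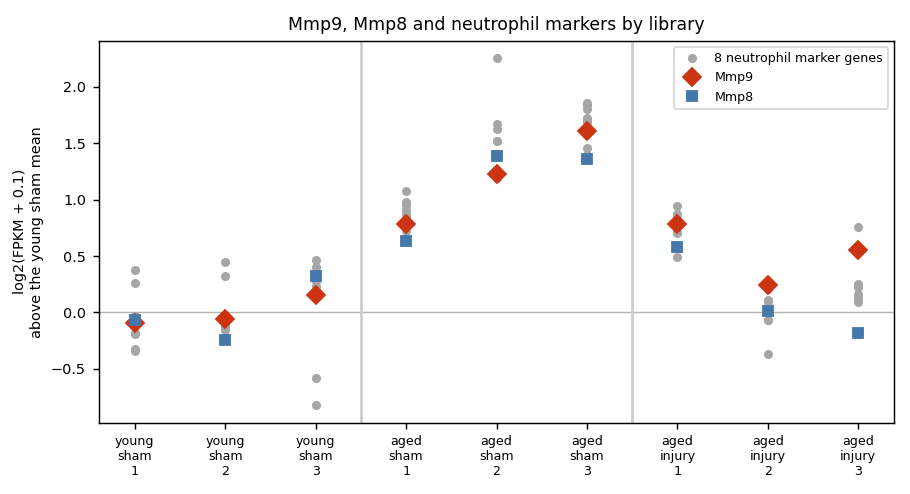
Level of Mmp9 (diamonds), Mmp8 (squares) and 8 neutrophil marker genes (grey) in each library, as log2(FPKM + 0.1) above the young sham mean. Mmp9 lies among the neutrophil markers in most libraries, highest in aged sham replicate 3 and, among aged libraries, lowest in aged injury replicate 2.

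Mmp8, the neutrophil collagenase, was the other metalloproteinase called with age. The young sham libraries held 1.42, 1.25 and 1.90 FPKM and the aged sham libraries 2.38, 4.09 and 4.02 FPKM, with no overlap and a log2 change of 1.13 (limma adjusted p = 0.0495). That call was kept in 1 of 9 fits with a library left out. Lcn2, a granule and acute phase protein that binds Mmp9, rose 2.82-fold (limma adjusted p = 0.0331).

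Mmp2, the gelatinase of fibroblasts and glia, was at 6.89, 6.83 and 5.78 FPKM in young sham, 7.42, 8.82 and 8.87 FPKM in aged sham, and 5.89, 6.70 and 8.55 FPKM in aged injury. All aged sham libraries lay above the young ones, but the log2 change of 0.36 did not pass (95% interval 0.05 to 0.67, limma adjusted p = 0.144). After injury the groups overlapped, with a log2 change of -0.26 (95% interval -0.57 to 0.06). The gene lies on chromosome 8 from 92827291 to 92853420.

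Mmp3, or stromelysin 1, cuts many matrix proteins and activates other metalloproteinases. It was listed at 0 in all 3 young sham libraries. The aged sham libraries held 0.0432, 0.349 and 0.259 FPKM and the aged injury libraries 0.103, 0.122 and 0.580 FPKM. These levels amount to 1, 7 and 6 reads in aged sham and 3, 3 and 13 in aged injury. A count of 0 allows up to 3 reads, or 0.127 to 0.149 FPKM in the young libraries, counting error only, so the lowest aged values cannot be told from the young ones. With no filter on low values Mmp3 had a limma adjusted p of 0.171 between aged and young sham.

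The membrane-bound metalloproteinases went separate ways after injury. Mmp16, or MT3-MMP, a membrane-anchored enzyme of the nervous system that can activate the Mmp2 precursor, lies on chromosome 4 from 17852893 to 18119145. It was at 1.52, 1.34 and 1.24 FPKM in young sham, 1.66, 1.150 and 1.28 FPKM in aged sham, and 2.84, 2.31 and 2.95 FPKM in aged injury. The injured libraries stood clear of all 6 sham libraries, which overlapped each other. Mmp16 rose 1.92-fold after injury, from 1.36 ± 0.263 to 2.70 ± 0.344 FPKM (log2 change 0.94, SE 0.161, limma adjusted p = 0.0163). Between aged and young sham the log2 change was -0.01 with a 95% interval of -0.37 to 0.35. Against young sham, aged injury was 1.91-fold higher (limma adjusted p = 0.00849), in all 9 fits with a library left out, though not with the Y-linked level in the fit (adjusted p = 0.0602).

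The genes that followed Mmp16 most closely were Pcsk1, a prohormone convertase of neurons, the melanin-concentrating hormone receptor gene Mchr1 and the transporter gene Slc22a23 (Pearson r = 0.985, 0.984 and 0.983 over 9 libraries). All 3 were called higher after injury, Mchr1 with a log2 change of 1.51. They were picked for likeness to Mmp16 over the same libraries, so these calls follow from that choice and are no separate support. Without aged sham replicate 1, the pool that held Y-linked RNA, Mmp16 kept its call with a log2 change of 1.08 (limma adjusted p = 0.0137). It was called in 5 of the 9 fits with a library left out and lost in those without aged sham replicate 2 or 3 or aged injury replicate 1 or 3 (adjusted p between 0.0608 and 0.0811).

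Mmp15, or MT2-MMP, the most abundant enzyme of the family here, fell. It lies on chromosome 8 from 95352268 to 95375080. Levels were 29.5, 30.1 and 27.4 FPKM in young sham, 28.8, 31.6 and 31.1 FPKM in aged sham, and 24.7, 23.3 and 23.2 FPKM in aged injury. The injured libraries all lay below the 6 sham libraries. Mmp15 fell 1.28-fold after injury, from 30.5 ± 1.48 to 23.8 ± 0.802 FPKM (log2 change -0.36, SE 0.0602, limma adjusted p = 0.0150). The size of the change was -0.40 to -0.34 with any 1 library left out, and the call was kept in 4 of those 9 fits. The 5 others, without aged sham replicate 2 or 3 or any 1 of the aged injury libraries, gave adjusted p between 0.0507 and 0.0680. Without aged sham replicate 1, the pool that held Y-linked RNA, the log2 change was -0.40 (limma adjusted p = 0.0163). Against young sham, Mmp15 was 1.22-fold lower in aged injury (limma adjusted p = 0.0171), and not called with the Y-linked level in the fit (adjusted p = 0.125).

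Nfic, a transcription factor, Ppfia4, a liprin of synapses, and Fbxo21, a subunit of a ubiquitin ligase, had the patterns most like Mmp15 (Pearson r = 0.992, 0.983 and 0.978 over 9 libraries). Each was called lower after injury, which follows from their being picked for likeness to Mmp15 over the same libraries. Of 7 sensory neuron markers 1 fell after injury, Isl1, and 6 did not pass, with a median log2 change of -0.15 against -0.01 over all tested genes. Their part in the Mmp15 and Mmp16 values was not tested.

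Mmp14, or MT1-MMP, the main activator of the Mmp2 precursor, held a level of 10.0 to 12.9 FPKM in all 9 libraries. It was at 11.5, 11.3 and 11.5 FPKM in young sham, 10.9, 12.2 and 10.3 FPKM in aged sham, and 10.0, 10.7 and 12.9 FPKM in aged injury. The 3 groups overlapped. The 95% interval of the change was -0.26 to 0.18 with age and -0.23 to 0.22 after injury, on the log2 scale.

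**Figure D3:**
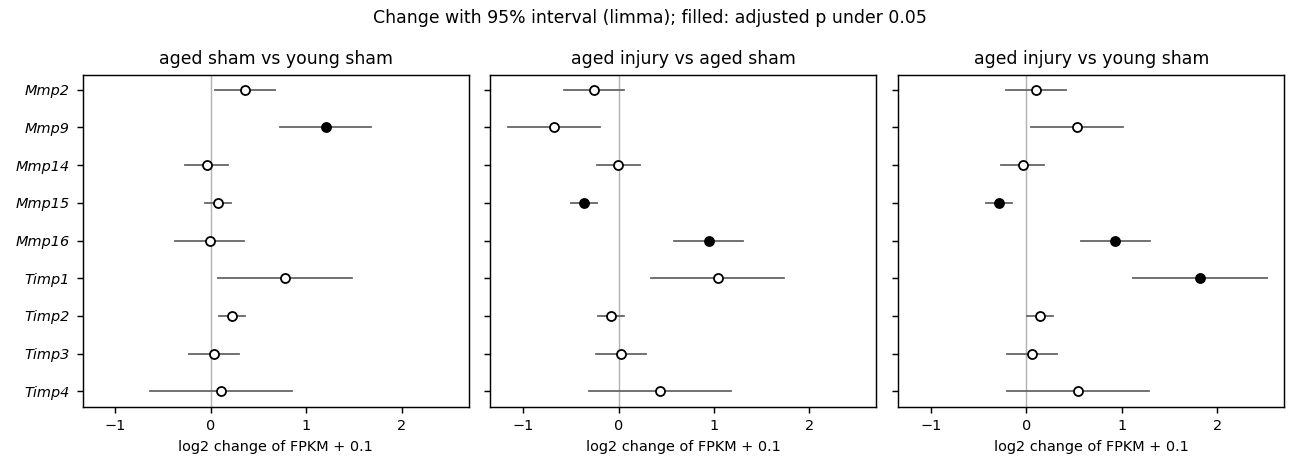
Log2 change of FPKM + 0.1 with its 95% interval for the 9 tested genes in the 3 comparisons; filled circles had a limma adjusted p under 0.05. Mmp9 was called with age, Mmp15 and Mmp16 after injury, and Mmp15, Mmp16 and Timp1 between aged injury and young sham.

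Timp1, the inducible inhibitor that binds most metalloproteinases, Mmp9 with its precursor form among them, had the widest range of the 4 TIMPs as a ratio of its highest to its lowest library. It lies on the X chromosome from 20870166 to 20874735, on the plus strand, inside the synapsin gene Syn1, which runs on the other strand and shares 0 exon bases with it. Syn1 itself was at 91.6 to 116 FPKM and was not called in any of the 3 comparisons. Timp1 transcription is known to answer to AP-1, the Fos and Jun dimer, and to cytokines that act through gp130 and Stat3. The promoter stretches of Timp1 and Mmp3 are shown because both genes are textbook AP-1 targets. Each line holds the 250 bases before the annotated start, from RefSeq (GRCm38.p6), with capitals marking matches on either strand to the AP-1 letters TGANTCA, the variant TGAGTAA, the CRE letters TGACGTCA or the STAT letters TTCNNNGAA. Timp1 is chrX:20869916-20870165 and Mmp3 is chr9:7445572-7445821, both on the plus strand.
Timp1: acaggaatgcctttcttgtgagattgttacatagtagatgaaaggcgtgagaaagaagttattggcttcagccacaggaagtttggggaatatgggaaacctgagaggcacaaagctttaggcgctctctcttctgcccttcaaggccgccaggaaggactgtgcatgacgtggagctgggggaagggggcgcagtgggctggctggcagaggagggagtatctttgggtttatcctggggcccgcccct
Mmp3: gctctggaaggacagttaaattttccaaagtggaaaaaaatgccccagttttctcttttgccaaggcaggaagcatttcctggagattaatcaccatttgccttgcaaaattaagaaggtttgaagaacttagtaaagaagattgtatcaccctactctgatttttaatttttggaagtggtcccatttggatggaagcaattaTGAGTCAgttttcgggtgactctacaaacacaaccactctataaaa

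In the Mmp3 window the AP-1 letters TGAGTCA began 46 bases before the start. In the Timp1 window the single match was TGAGTAA, the AP-1 form described in the human TIMP1 promoter, 27 bases past the annotated start (chrX:20870181-20870210, plus strand).
Timp1, past the start: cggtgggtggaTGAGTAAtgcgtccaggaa
TGAGTAA was searched after this sequence had been read. Over 32851 promoter windows of 300 bases, 250 before and 50 after the start, 7.81% held TGANTCA, 2.68% TGAGTAA, 1.79% TGACGTCA and 8.3% TTCNNNGAA. RefSeq windows were at hand for 7 of the 10 genes, and those of Mmp14, Mmp15, Timp2, Timp3 and Timp4 held none of these letters.

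Timp1 stood at 3.84, 10.2 and 4.14 FPKM in young sham, 10.8, 8.18 and 9.62 FPKM in aged sham, and 21.0, 18.9 and 18.8 FPKM in aged injury. The injured libraries were above all 6 sham libraries, while young sham replicate 2 reached the level of the aged sham libraries. The mean was 9.52 ± 1.30 FPKM in aged sham and 19.6 ± 1.28 FPKM in aged injury. Their log2 difference of 1.04 missed the threshold (SE 0.310, 95% interval 0.34 to 1.74, limma adjusted p = 0.103). Without aged sham replicate 1, the pool that held Y-linked RNA, it was 1.131 (limma adjusted p = 0.1545). The shared estimate of spread held the young libraries, and the adjusted p was 0.0280 with the 2 aged groups alone, 0.0175 with limma voom on recovered reads and 0.00691 without young sham replicate 2. Between aged and young sham the log2 change was 0.78 (limma adjusted p = 0.152), and without young sham replicate 2 it was 1.23 (adjusted p = 0.00713). Over all alternatives the adjusted p ran from 0.00691 to 0.257 after injury and from 0.00713 to 0.410 with age.

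Against young sham, Timp1 rose 3.53-fold in aged injury, the largest log2 change of the 9 tested genes in that comparison (log2 change 1.82, SE 0.310, limma adjusted p = 0.00808). That call was kept in all 9 fits with a library left out and in 10 of 11 other settings, and was lost when the Y-linked level entered the fit (log2 change 2.09, adjusted p = 0.176). Since Timp1 is X-linked and the young pools were male, age, sex and injury cannot be told apart in this comparison.

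The genes most like Timp1 over the 9 libraries were Kirrel3os, an RNA antisense to Kirrel3 whose reads cannot be told from its partner's without strand, Tmem173, which encodes the DNA sensor adaptor STING, and Plod3, a lysyl hydroxylase of collagens (Pearson r = 0.991, 0.989 and 0.986). Each, picked for likeness to Timp1 over these same libraries, shared with it the high value of young sham replicate 2 relative to the other young libraries. Tmem173 was at 3.43, 6.85 and 3.62 FPKM in young sham and reached 10.9 to 12.6 FPKM in aged injury. Some other genes also had their highest young value in that library. Plaur, the urokinase receptor, was at 4.998, 9.57 and 4.62 FPKM over young sham replicates 1 to 3. The sheddase gene Adam8 had 1.23, 2.55 and 1.51 FPKM there. Their part in the Timp1 values was not tested.

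Timp2, which inhibits the gelatinases and also takes part in Mmp2 activation with Mmp14, was the most abundant TIMP in every library. It was at 264, 252 and 247 FPKM in young sham, 278, 298 and 316 FPKM in aged sham, and 284, 280 and 277 FPKM in aged injury. Every aged library was above every young library, by a narrow margin. The log2 change with age was 0.22 (95% interval 0.09 to 0.36, limma adjusted p = 0.0663), and array weights or voom on recovered reads brought it to adjusted p = 0.0410 and 0.0418. The log2 change after injury was -0.08 (95% interval -0.22 to 0.05). Timp2 lies on chromosome 11 from 118301069 to 118355740.

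Timp3, the TIMP that binds to the matrix and also inhibits ADAM17, overlapped in all 3 groups. It was at 25.9, 20.0 and 23.6 FPKM in young sham, 20.7, 26.7 and 23.8 FPKM in aged sham, and 23.3, 22.7 and 26.3 FPKM in aged injury. The 95% interval of its log2 change was -0.23 to 0.30 with age and -0.24 to 0.29 after injury. Timp3 (chromosome 10, 86300372 to 86349506) lies opposite Syn3 and shares 1733 of its 8144 exon bases with it. Without stated strand handling its reads there cannot be separated, though Syn3 was only at 0.36 to 0.46 FPKM.

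Timp4 was barely expressed. It stood at 0.589, 0.398 and 0.190 FPKM in young sham, 0.439, 0.380 and 0.384 FPKM in aged sham, and 0.656, 0.464 and 0.623 FPKM in aged injury. These values rested on 3 to 15 reads per library. The injured libraries were all above the aged sham ones, but the log2 change of 0.43 had a 95% interval of -0.31 to 1.18 and did not pass (limma adjusted p = 0.521). Timp4 (chromosome 6, 115241892 to 115252205) lies opposite Syn2 and shares 90 exon bases with it. Syn2 was far more abundant, at 33.5 to 43.9 FPKM, and strand handling is not stated, so part of the few Timp4 reads could belong to it.

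**Figure D4:**
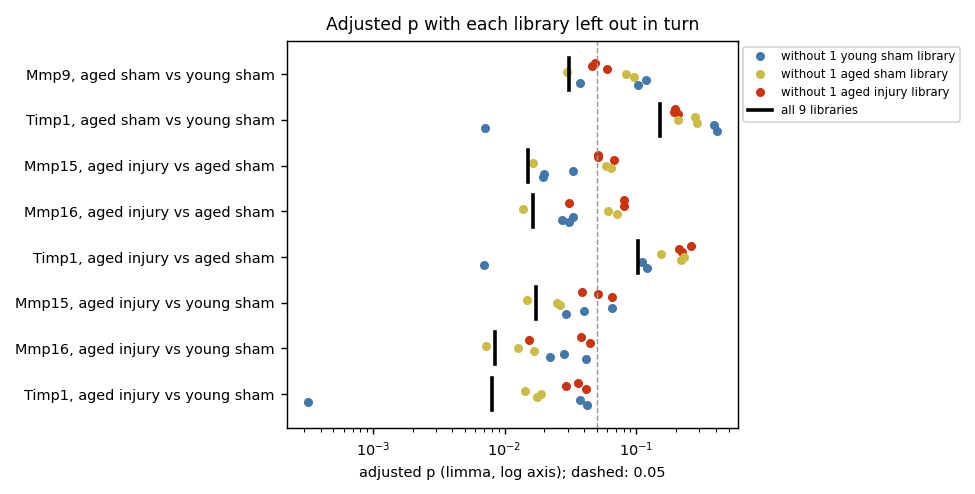
Limma adjusted p (log axis) of the called genes and of Timp1 when 1 of the 9 libraries is dropped, coloured by the group of the library left out; the black bar is the fit with all 9. Timp1 and Mmp16 stay under 0.05 throughout between aged injury and young sham, while the calls with age and after injury cross it in several fits.

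Other proteases of the matrix were measured as well. Over all tested genes 4.02% were called with age, 4.11% after injury and 13.1% between aged injury and young sham. The counts of this and the following lists carry no test against these shares. Of 17 further metalloproteinase genes, 9 passed the filter and 5 were at 0 in every library (Mmp1a, Mmp1b, Mmp7, Mmp20 and Mmp21). With age 1 rose, Mmp8, and 8 did not pass. After injury none was called by limma, and between aged injury and young sham Mmp25, the membrane-type enzyme of leukocytes, rose 1.34-fold (limma adjusted p = 0.0431). Mmp13, the collagenase of bone and cartilage, varied between 0.03 and 0.96 FPKM without order and had a log2 change of -1.80 after injury (adjusted p = 0.251).

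Of 30 ADAM and ADAMTS genes, relatives that shed membrane proteins or cut proteoglycans, 25 were tested. With age Adam15 rose 1.34-fold, Adamts5 fell by 0.36 and Adamts3 by 0.82 (log2), while 22 did not pass. After injury Adamts1, a protease of versican and aggrecan, rose 1.81-fold and 24 did not pass. The aged sham libraries held 3.43, 3.92 and 3.84 FPKM of Adamts1 and the aged injury libraries 6.64, 6.38 and 7.47 FPKM, well apart (limma adjusted p = 0.00486). Its call was kept in all 9 fits with a library left out. Adam8, a sheddase of leukocytes and injured neurons, was at 2.07 to 3.40 FPKM in aged sham and 4.59 to 6.86 FPKM in aged injury (adjusted p = 0.0531). Against young sham, 4 of the 25 rose in aged injury, Adamts1, Adam8, Adamts8 and Adam15, and 21 did not pass, where 8.2% of all tested genes rose.

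Of 24 activators, binding partners and inhibitors of metalloproteinases 22 were tested, and 3 rose after injury, among them Plaur and Cd44. Plaur, the urokinase receptor, rose 2.75-fold to a mean of 26.7 FPKM (limma adjusted p = 0.0293), and aged sham replicate 1 was the highest sham library at 13.7 FPKM. Cd44, the hyaluronan receptor that docks Mmp9 and Mmp14 at the membrane, rose 1.69-fold (adjusted p = 0.00529). Nothing in this list fell after injury, and 19 did not pass. With age Lcn2 and Cd82 rose and 20 did not pass. Between aged injury and young sham 7 rose, among them Plaur, Cd44 and the plasminogen activator gene Plat, 1 fell, Spock3, and 14 did not pass. Over all tested genes 8.2% rose and 4.89% fell there. Reck, a membrane inhibitor of Mmp2, Mmp9 and Mmp14, was at 2.45 to 3.38 FPKM in the 9 libraries and was not called in any comparison.

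Among 19 genes of basement membrane proteins that these enzymes cut, 17 were tested and 0 were called with age or after injury by limma, though 1, Lama5, rose between aged injury and young sham (1.56-fold, limma adjusted p = 0.0298). Col4a1, a chain of type IV collagen, was at 14.8 to 17.5 FPKM in young sham and 9.37 to 13.1 FPKM in aged sham (log2 change -0.47, adjusted p = 0.0695). The median of the list was -0.10 with age and -0.03 after injury.

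Of 26 genes of AP-1, Stat3 and cytokine signalling upstream of Timp1, 23 were tested and 7 rose after injury, with 0 falls and 16 that did not pass. They included Il6, a cytokine that signals through gp130, from 0.8502 to 3.217 FPKM (log2 change 1.76, limma adjusted p = 0.00886). Ets2, Fosl2 and Jun, transcription factors that bind Ets and AP-1 sites, rose 1.66-fold, 1.72-fold and 2.02-fold. With age Tgfb1 rose 1.86-fold and 22 did not pass. Against young sham, 11 rose in aged injury, 0 fell and 12 did not pass, where 8.2% of all tested genes rose and 4.89% fell. The list's median was 0.17 after injury and 0.25 with age. No link between these genes and Timp1 was tested.

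**Figure D5:**
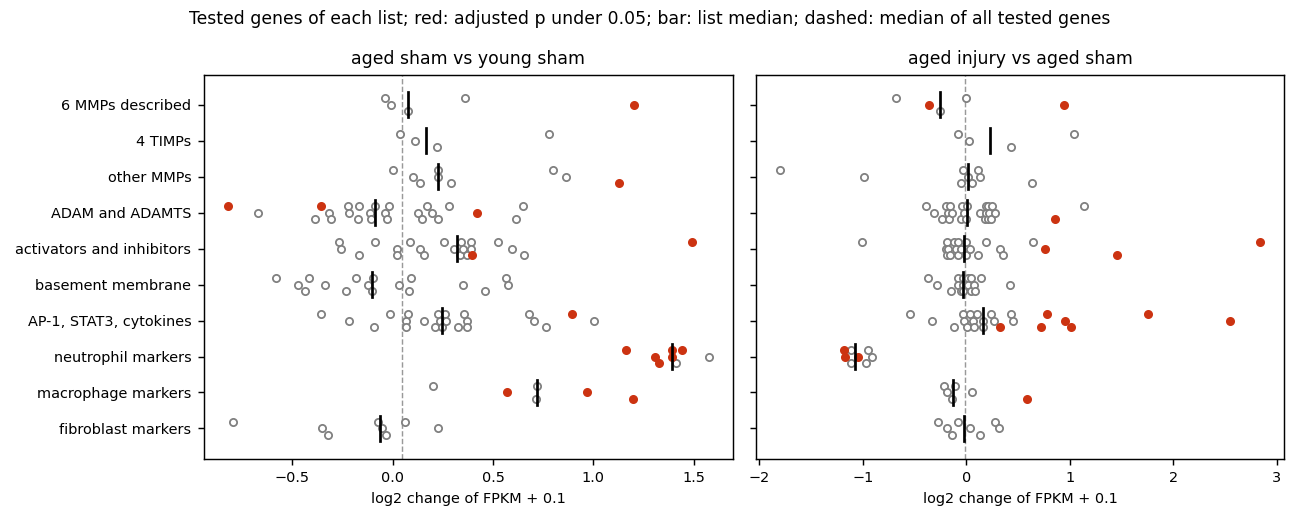
Log2 change of FPKM + 0.1 of every tested gene of each list, with age (left) and after injury (right); red points had a limma adjusted p under 0.05, black bars are list medians and the dashed line is the median of all tested genes. The neutrophil markers lie near 1.39 with age and near -1.08 after injury, and the fibroblast markers around 0.

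Markers of other cells were measured in the same fit, in which 4.02% of all tested genes were called with age and 4.11% after injury. Of 6 macrophage markers 3 rose with age, Tyrobp, Cd68 and Csf1r, and 3 did not pass, with a median log2 change of 0.717. After injury 1 rose, Mrc1, and 5 did not pass, with a median of -0.127. The means of Cd68, Adgre1, Aif1 and Tyrobp were lower after injury, and that of Csf1r was slightly higher. None of 8 fibroblast markers was called with age or after injury, while Col3a1, a fibrillar collagen chain, fell between aged injury and young sham. Its young sham libraries held 14.6 to 17.2 FPKM and its aged sham libraries 7.79 to 9.70 FPKM. Nor were 5 skeletal muscle genes called, with a median log2 change of -2.09 after injury; their sum ran from 36.1 to 335 FPKM in young sham, 12.4 to 226 FPKM in aged sham and 3.08 to 32.9 FPKM in aged injury. Of 6 pericyte markers Rgs5 fell with age and rose after injury, and 5 did not pass in either comparison (list medians -0.159 and 0.244). Of 6 endothelial markers Cldn5 rose with age and fell after injury, and 5 did not pass in either (list medians 0.048 and 0.157). Of 6 myelinating Schwann cell markers 3 fell with age and 0 were called after injury. Of 6 satellite glia markers 2 fell with age, Ednrb and Gja1, and 4 did not pass. After injury 1 rose, Glul, and 5 did not pass, with a median log2 change of -0.04. The means of Fabp7, Apoe and Ednrb were lower after injury, and those of Kcnj10 and Gja1 higher. None of these lists had a marker at 0 in every library, and their part in the values of the metalloproteinases and TIMPs was not tested.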

How the data were processed

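RNA of 9 libraries was measured once each. The deposited values are FPKM made by the authors. The submitters' processing notes list FastQC 0.10.1, R 3.1.1, HTSeq 0.6.0, TopHat2 2.0.12, limma 3.22.7, Bowtie2 2.2.3, edgeR 3.8.6 and SAMtools 0.1.19, with genome build mm10 and no roles. The sources used here give no annotation release, strand handling or scaling factors. The table mixed 38392 Ensembl and 7488 UCSC identifiers, so reads of a locus could have been split. Columns were assigned by age, treatment and number in their names, and 0 were left out.

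Symbols and positions came from GENCODE M21, on the same build. Values were whole multiples of 1 read. In 99.9% of tested identifiers a multiple of up to 20000 lay within 0.001 reads, or the annotated length gave whole reads within 0.01. The annotated length alone did so in 47.7%. The length implied by the reads was 0.436 of the annotated length for Mmp14, 0.24 for Timp4 and 0.806 for Mmp15. For Mmp9, Timp1, Timp2 and Timp3 it was the annotated length. The order of genes by FPKM therefore rests on lengths that were not stated. Steps gave the effective depth of 11156000 to 16154000 fragments and the reads quoted, as the smallest whole numbers possible.

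The test was limma 3.58.1 (R 4.3.3), run on log2(FPKM + 0.1) for genes whose mean reached 0.2 FPKM, with a variance trend and all 9 libraries in 1 fit. Changes on this scale understate those of low genes. Tests were two-sided with Benjamini-Hochberg adjustment over 17601 genes. An exact permutation test of 3 against 3 cannot go below p = 0.1. Each library is a pool of 2 mice, so p-values measure how pools vary, not single animals. Simulated data with the age comparison's 17601 genes gave back 91% of 2-fold and 97% of 4-fold changes. Alternatives changed the pseudocount, filter, scaling, libraries, weights, block and covariate, and voom on recovered reads was added after seeing the data. The genes and lists were chosen with earlier results of these data known. All 10 genes are described, and from each list up to 4 called genes with the smallest p. Mmp13, Col4a1 and Reck, and Adam8 and Plaur beside Timp1, were named after their values were seen. Some genes of these lists are counted but not reported by name here.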

Additional observations from a re-analysis of the deposited data

How the results depend on the processing

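Log2 changes of the 9 tested genes kept their direction under most alternatives, but counts of called genes moved with the model of the spread. Set against the log2 changes as reported, those with 1 library left out kept direction and side of the threshold 208 times, lost a call 17 times, gained one 2 times and changed sign 16 times. Under the other settings these numbers were 264, 8, 6 and 16. With age 707 genes were called. The count was 239 with no filter on low values, 31 with the 2 sham groups alone, 2020 with array weights, 8 with the Y-linked level as covariate and 1075 with voom on recovered reads, an alternative chosen after seeing the data. Of the family 0 genes were then called with the sham groups alone or the covariate, and 2 with array weights or voom (Mmp9 and Timp2). After injury 302 genes were called with the aged groups alone, among them Timp1 and Mmp15 and not Mmp16 (limma adjusted p = 0.0600). Between aged injury and young sham 3755 were called with array weights and 145 with the covariate, of the family 0. The covariate nearly followed the split of young from aged libraries, so its low counts against young sham cannot separate age from sex.

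The labels do not say that replicate numbers pair the libraries, and not every pair passed a correlation of 0.1. Same-numbered libraries correlated in their deviations at -0.07 to -0.02 between young and aged groups and at 0.06 to 0.27 between aged sham and aged injury. Differently numbered aged libraries ran from -0.26 to 0.04, so that there each library correlated best with its own number, a hint from the data and not the design. With replicate number as a block, 101 genes were called with age, 273 after injury and 1561 between aged injury and young sham. Of the family 0, 1 and 3 were called, and Mmp9 with age (limma adjusted p = 0.0589) and Mmp15 after injury (0.0565) were lost.

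Leaving out 1 library gave 23 to 1536 genes with age, 151 to 740 after injury and 869 to 2365 between aged injury and young sham, and 0 to 2, 0 to 3 and 2 to 3 of the family. The fewest with age came without aged sham replicate 3 and the most without young sham replicate 2. Mmp15 between aged injury and young sham was lost without aged injury replicate 2 or 3 or young sham replicate 1 (adjusted p 0.0511 to 0.0652).

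The log2 changes that changed sign were not called as reported, and all but that of Mmp9 between aged injury and young sham (0.53) were small. That change was called with array weights (limma adjusted p = 0.0478), which made 4 of the family. With the covariate the age change was -0.02 for Mmp15, 0.31 for Mmp16 and -0.177 for Timp3, the injury change -0.064 for Timp3, and the change from young sham to aged injury -0.183 for Mmp2, -0.157 for Mmp9, -0.017 for Timp2 and -0.241 for Timp3. With equal medians Timp3 was at -0.014, -0.001 and -0.015 in the 3 comparisons. With array weights the age change was -0.012 for Timp3 and -0.083 for Timp4, and the injury change 0.006 for Mmp14. Quantile normalization gave -0.071 for Timp4 with age and 0.009 for Mmp14 after injury. With 1 library left out the age change ran from -0.107 to 0.016 for Mmp14, -0.15 to 0.096 for Mmp16, -0.067 to 0.128 for Timp3 and -0.228 to 0.397 for Timp4. The injury change ran from -0.107 to 0.074 for Mmp14 and -0.066 to 0.115 for Timp3. Between aged injury and young sham it ran from -0.044 to 0.221 for Mmp2, -0.147 to 0.035 for Mmp14 and -0.039 to 0.146 for Timp3. The cause of these shifts was not tested. Depth limits Mmp3 and Timp4, with 33 and 77 reads in all. A filter at a mean of 1 FPKM left out Timp4.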

Other observations

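The ratio of Timp1 to Mmp9, both in FPKM, was 3.15, 8.19 and 2.82 in young sham, 4.63, 2.56 and 2.30 in aged sham, and 9.05, 12.1 and 9.53 in aged injury. The injured libraries stood above the 6 sham libraries, with young sham replicate 2 the nearest of them. The ratio was looked at after the levels had been seen and carries no test.

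Mmp15 and Mmp16 ran against each other over the 9 libraries (Pearson r = -0.90 of log2 levels, a description over libraries that share depth and pooled animals). Mmp16 was called higher and Mmp15 lower in the same injured libraries, so this r holds that step between groups. A relation within groups was not tested. Mmp9 and Timp2 had an r of 0.90 over the same libraries.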
